A study of Mus musculus with 20 samples.

Results

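The unfolded protein response and the integrated stress response were followed here through 39 genes in C2C12 cells, a mouse myoblast line. The genes fell into 4 roles, namely 4 sensors and transducers, 7 stress response factors, 12 amino acid response genes that are mostly targets of Atf4, and 16 chaperones and folding factors of the endoplasmic reticulum (ER). A gene was measured where a probe set of the Affymetrix mouse gene array carried its symbol and no other symbol, which held for 38 of the 39 genes among the 22180 genes tested. Pdia4 was left out because its only probe set is shared with Mir704, and the chaperone group therefore held 15 genes. The 20 arrays comprised 2 of untreated cells, 3 of cells given methanol, and 2 for each dose of recombinant BMP4, which were 10, 100 and 300 ng/ml. Compounds 942, 178 and 181 had 1 array each at 6.25, 12.5 and 25 µM. The labels name no genetic change to the cells, and the compounds are known here by code name only. Untreated cells served as the control of BMP4, and methanol, which the protocol names beside the compounds, as the control of the compounds. The doses 12.5 µM and 100 ng/ml stand in the sample titles and not in the treatment protocol, and no source used here gives the length of treatment.

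When unfolded proteins gather in the ER, membrane sensors respond. Ern1 (IRE1) splices the mRNA of Xbp1, Atf6 is cut to release a transcription factor, and Eif2ak3 (PERK) phosphorylates the initiation factor eIF2. The first pair of branches is best known for raising ER chaperones, whereas eIF2 phosphorylation, which other kinases also bring about when amino acids run short, favours translation of Atf4. Atf4 in turn raises genes for amino acid synthesis, amino acid import and tRNA charging. BMP4, a ligand of the transforming growth factor family, turns C2C12 cells from muscle towards bone, and bone-forming cells secrete large amounts of collagen.

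Signals are log2 values, as deposited, and a change is a difference of log2 values. The median of an array was 4.93 to 5.05. No pair of arrays of 1 group held identical values for more than 0.0363% of probe sets. Nothing in the labels says that replicate arrays stem from separate cultures. The p-values therefore speak only of the spread among these arrays, which may be technical in part. BMP4 300 ng/ml replicate 1 and the 3 arrays of compound 942 were labelled by another method (Affyexpress), and with a term for it in the model the fitted value at 300 ng/ml rests on replicate 2. The 5 myoblast markers (Myod1, Myf5, Cdh15, Des and Itga7) had mean signals of 9.30 to 11.41, against a median of 5.43 over all genes, and the mean signals of endothelial, macrophage and epithelial markers were at most 5.47. The summed level of the myoblast markers was 52.98 to 53.28 in the 5 control arrays, 44.51 to 52.69 under BMP4 and 52.48 to 53.21 under the compounds. The same sum over 4 macrophage markers was 16.84 to 17.44, 16.87 to 18.36 and 16.81 to 17.82, over 4 endothelial markers 16.84 to 18.04, 17.04 to 18.43 and 17.32 to 18.54, and over 2 epithelial markers 9.29 to 9.59, 8.73 to 9.15 and 8.96 to 9.35. No marker was at 0. The summed myoblast marker signal was below all 5 controls in all 6 BMP4 arrays, though the highest of these lay within the range of the compounds. The sum over the 2 epithelial markers, with mean signals of 3.71 and 5.47, was likewise below all 5 controls in all 6 BMP4 arrays. The part of these lower marker signals in the results below was not tested. In these bulk samples, a change in the number of cells of a kind and a change in RNA per cell cannot be told apart.

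Under BMP4, 7 of 12 amino acid response genes rose, while ER chaperones for the most part did not pass the test. Averaged over the 3 doses and set against untreated cells, 10 of the 38 genes rose and 2 fell, against 4.20% and 4.60% of all genes. Among the amino acid response genes, 7 of 12 rose and none of the 12 fell, with a median change of 0.41. Of the stress response factors, 2 of 7 rose (Nupr1 and Atf5) and 1 fell (Atf3), with a median of 0.40. Of the ER chaperones and folding factors, 1 of 15 rose (Edem1) and 0 fell, with a median of -0.02. Of the sensors, Ern1 fell, and the median over the 4 was -0.16. The median over all genes tested was -0.01. Without untreated replicate 1, 5 of the 38 genes passed, namely Asns, Sesn2, Chac1, Slc7a5 and Nupr1. That fit holds 1 untreated array, and the share of all genes that passed in it is not given here. All 6 BMP4 arrays lay above all 5 control arrays for 7 of the 38 genes, against 3.19% of all genes, and below them for 2 (Ern1 and Atf3), against 4.59%. Within both runs of title numbers (10 to 17 and 18 to 29), which hold 1 untreated array each, the 12 genes that passed kept their direction: Chac1 was 1.36 and 0.98 above untreated, Asns 0.72 and 0.64, Nupr1 0.61 and 0.84, and Atf3 -0.77 and -0.49. BMP4 300 ng/ml replicate 2 is in the run of 18 to 29, and is set against untreated arrays of both runs. The labelling term is set by replicate 1 against replicate 2 of that dose, so it also carries the run difference. Fitted values at 300 ng/ml, BMP4 means and slopes can include it. At 300 ng/ml Phgdh was fitted at 0.17, against -0.22 and -0.10 within runs, and Nupr1 at 1.31, against 0.94 and 1.42. Within-run values have no labelling term.

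**Figure D1:**
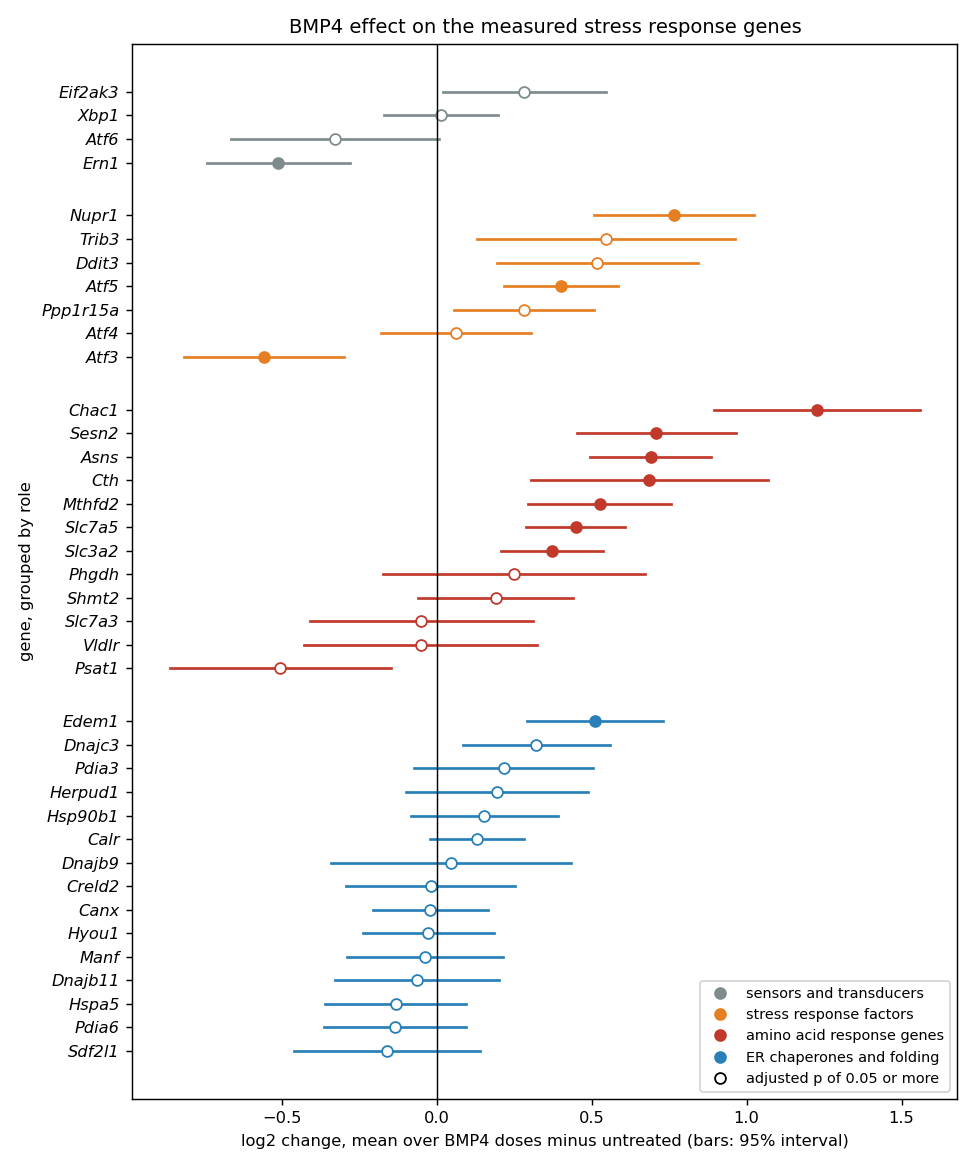
Log2 change of each of the 38 measured genes, mean over the 3 BMP4 doses minus untreated (x axis), by role (rows), with 95% intervals of the model as bars and filled points for adjusted p under 0.05. The 7 filled amino acid response genes lie between 0.37 and 1.23, while 14 of the 15 chaperones and folding factors are open points between -0.16 and 0.32.

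Among the amino acid response genes, Chac1, an enzyme that breaks down glutathione, moved furthest. Its signals were 6.80 and 7.23 in untreated cells, 6.87, 7.28 and 7.24 in methanol, 8.10 and 7.84 at 10 ng/ml, 8.34 and 8.41 at 100 ng/ml, and 8.03 and 8.37 at 300 ng/ml BMP4. All 6 BMP4 arrays lay above all 5 controls, and the mean change was 1.23 (SE 0.15, adjusted p = 3.22e-04). Asns makes asparagine and is a textbook target of Atf4. It stood at 9.70 and 9.73 in untreated cells, 9.68, 9.92 and 9.86 in methanol, 10.32 and 10.21 at 10 ng/ml, 10.58 and 10.49 at 100 ng/ml, and 10.35 and 10.42 at 300 ng/ml BMP4. Its groups did not overlap either, with a change of 0.69 (SE 0.09, adjusted p = 4.39e-04). Sesn2, a leucine sensor that restrains mTORC1, gave 5.94 and 6.04 in untreated cells, 6.19, 5.98 and 6.02 in methanol, 6.69 and 6.66 at 10 ng/ml, 6.83 and 6.75 at 100 ng/ml, and 6.53 and 6.63 at 300 ng/ml BMP4, again with no overlap, and a change of 0.71 (SE 0.12, adjusted p = 0.00224).

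Slc7a5 and Slc3a2 form the transporter that brings leucine and other large neutral amino acids into the cell. Slc7a5 was 10.46 and 10.40 in untreated cells, 10.45, 10.52 and 10.52 in methanol, 11.05 and 11.05 at 10 ng/ml, 10.92 and 11.02 at 100 ng/ml, and 10.52 and 10.62 at 300 ng/ml BMP4. It was highest at the 2 lower doses, and 1 array at 300 ng/ml lay within the control range. The mean change was 0.45 (SE 0.07, adjusted p = 0.00204). Slc3a2, its partner chain, was 10.45 and 10.54 in untreated cells, 10.69, 10.62 and 10.61 in methanol, 10.98 and 10.86 at 10 ng/ml, 10.91 and 10.86 at 100 ng/ml, and 10.79 and 10.80 at 300 ng/ml BMP4, with no overlap and a change of 0.37 (SE 0.08, adjusted p = 0.00829). Against methanol instead of untreated cells the change of Slc3a2 was 0.23 (adjusted p = 0.0456). Slc7a3, an importer of cationic amino acids, changed by -0.05 (adjusted p = 0.928) and did not pass.

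Mthfd2, a mitochondrial enzyme of one-carbon metabolism, was 7.77 and 8.00 in untreated cells, 7.79, 7.91 and 8.01 in methanol, 8.33 and 8.31 at 10 ng/ml, 8.62 and 8.66 at 100 ng/ml, and 8.27 and 8.27 at 300 ng/ml BMP4. All BMP4 arrays were above the controls, and the change was 0.53 (SE 0.11, adjusted p = 0.00778). Cth, which makes cysteine from cystathionine, was 4.98 and 4.96 in untreated cells, 5.05, 4.77 and 5.08 in methanol, 5.86 and 5.26 at 10 ng/ml, 5.93 and 6.22 at 100 ng/ml, and 5.38 and 5.34 at 300 ng/ml BMP4. The 2 arrays at 10 ng/ml lay far apart, the 100 ng/ml arrays were highest, and the mean change was 0.69 (SE 0.18, adjusted p = 0.0295). The call of Mthfd2 was lost without untreated replicate 1 and that of Cth without either untreated array. Enzymes of serine synthesis did not pass: Psat1 had a mean change of -0.50 (adjusted p = 0.0846) and Phgdh one of 0.25 (adjusted p = 0.574). Within the runs of title numbers, the mean change of Phgdh was 0.19 and 0.09. Shmt2, which takes serine into one-carbon metabolism, changed by 0.19 (adjusted p = 0.423), and Vldlr, a lipoprotein receptor, by -0.05 (adjusted p = 0.928).

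The promoter windows of these genes were searched because C/EBP-ATF response elements are the sites through which Atf4 acts. Windows of 300 bases, 250 before and 50 after the start, were taken from RefSeq on GRCm38.p6 for 33 of the 39 genes (36 windows). Atf6, Cth, Slc7a5, Slc7a3, Manf and Hyou1 had no window, and the chaperone windows include that of Pdia4, which was not tested. The element was searched on both strands as TGATG, any 1 base, then AA. It stood in 3 of 11 windows of amino acid response genes (Asns, Chac1 and Vldlr), in 3 of 8 windows of stress response factors (Atf3, Nupr1 and Trib3), in 1 of 14 chaperone windows (Herpud1) and in none of 3 sensor windows, against 3.97% of 32851 windows of that length. Carriers went both ways under BMP4: Asns, Chac1 and Nupr1 rose, Atf3 fell, and Vldlr, Trib3 and Herpud1 did not pass. Sesn2, Mthfd2, Slc3a2, Atf5 and Edem1 rose with no match in their windows, and Cth and Slc7a5 rose but had no window to search. The stretches of the 4 carriers that passed are given 5′ to 3′ on the strand of the gene, with the match, on either strand, in capitals and 20 bases on each side.
Asns, chr6:7693205-7693252, minus strand: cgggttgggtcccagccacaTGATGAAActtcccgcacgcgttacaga
Chac1, chr2:119351029-119351076, plus strand: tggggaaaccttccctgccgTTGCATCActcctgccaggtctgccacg
Nupr1, chr7:126625553-126625600, minus strand: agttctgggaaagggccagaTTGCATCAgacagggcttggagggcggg
Atf3, chr1:191183416-191183463, minus strand: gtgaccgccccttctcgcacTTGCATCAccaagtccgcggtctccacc

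Among the stress response factors, Atf4, whose translation eIF2 phosphorylation favours, was 8.17 and 8.49 in untreated cells, 8.25, 8.33 and 8.30 in methanol, 8.28 and 8.37 at 10 ng/ml, 8.40 and 8.60 at 100 ng/ml, and 8.45 and 8.34 at 300 ng/ml BMP4. The groups overlapped, and the change was 0.06 (95% interval -0.18 to 0.30, adjusted p = 0.850). Its activity is set largely by translation, which arrays do not measure. Atf5, a related factor that stress also controls through translation, was 9.11 and 9.02 in untreated cells, 8.96, 8.94 and 8.96 in methanol, 9.41 and 9.40 at 10 ng/ml, 9.47 and 9.59 at 100 ng/ml, and 9.18 and 9.46 at 300 ng/ml BMP4, above all controls in every BMP4 array, with a change of 0.40 (SE 0.08, adjusted p = 0.00944). Nupr1, a small nuclear stress protein, was 8.44 and 8.22 in untreated cells, 8.53, 8.20 and 8.22 in methanol, 8.48 and 8.28 at 10 ng/ml, 9.29 and 9.25 at 100 ng/ml, and 9.38 and 9.64 at 300 ng/ml BMP4. It stayed in the control range at 10 ng/ml and stood clear of it at the higher doses. The mean change was 0.77 (SE 0.12, adjusted p = 0.00148). It was 0.49 over 10 and 100 ng/ml alone, in the fit without BMP4 300 ng/ml replicate 2.

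Atf3, which represses many stress-induced genes, ran the other way. It was 8.06 and 8.01 in untreated cells, 7.83, 8.21 and 7.98 in methanol, 7.75 and 7.79 at 10 ng/ml, 7.21 and 7.37 at 100 ng/ml, and 6.92 and 7.37 at 300 ng/ml BMP4, so that all 6 BMP4 arrays lay below all 5 controls. The mean change was -0.56 (SE 0.12, adjusted p = 0.0104). Without either untreated array, neither Atf3 nor Atf5 passed. Ddit3 (CHOP), the factor tied to cell death under ER stress, was 6.65 and 7.04 in untreated cells, 6.86, 6.78 and 6.91 in methanol, 7.31 and 6.87 at 10 ng/ml, 7.57 and 7.38 at 100 ng/ml, and 7.37 and 7.53 at 300 ng/ml BMP4, and with 1 array at 10 ng/ml among the controls its change of 0.52 (95% interval 0.19 to 0.84, adjusted p = 0.0514) just missed the threshold. It passed in 10 of 21 alternative settings, among them methanol as the control (0.51, adjusted p = 0.0237). Trib3, a pseudokinase that damps Atf4 and Ddit3, was 6.55 and 6.18 in untreated cells, 6.03, 5.95 and 6.25 in methanol, 7.02 and 6.47 at 10 ng/ml, 7.24 and 6.70 at 100 ng/ml, and 6.89 and 7.02 at 300 ng/ml BMP4. Untreated replicate 1 was the highest of its 5 controls, and the change was 0.55 (95% interval 0.13 to 0.96, adjusted p = 0.112). With methanol as the control it was 0.84 (adjusted p = 0.00595). Ppp1r15a (GADD34), which leads phosphatase to eIF2, changed by 0.28 (adjusted p = 0.133).

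None of the 4 sensors rose and 1 fell. Ern1 was 8.89 and 8.66 in untreated cells, 8.68, 8.63 and 8.71 in methanol, 8.42 and 8.16 at 10 ng/ml, 8.18 and 8.23 at 100 ng/ml, and 8.26 and 8.30 at 300 ng/ml BMP4, with all BMP4 arrays below all controls and a change of -0.51 (SE 0.11, adjusted p = 0.00912), a call lost without untreated replicate 1. Xbp1, its substrate, was 9.79 and 9.97 in untreated cells, 9.96, 10.00 and 9.98 in methanol, 9.86 and 9.94 at 10 ng/ml, 9.85 and 9.75 at 100 ng/ml, and 9.91 and 9.98 at 300 ng/ml BMP4. These groups overlapped throughout, and the change was 0.01 (95% interval -0.17 to 0.20, adjusted p = 0.967), with a sign that turned in 8 of 21 alternative settings. The spliced form of Xbp1 was not analysed here. Atf6 changed by -0.33 (95% interval -0.67 to 0.01, adjusted p = 0.262) and Eif2ak3 by 0.28 (95% interval 0.02 to 0.55, adjusted p = 0.210). At 100 and 300 ng/ml, all 4 arrays lay above all 5 controls for Eif2ak3 and below them for Atf6, though neither gene passed. Of the 38 genes, 15 lay above in this way and 4 below, against 10.4% and 11% of all genes.

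Of the ER chaperones, Hspa5 (BiP), the Hsp70 of the ER lumen, which also holds the sensors inactive, was 8.40 and 8.57 in untreated cells, 8.37, 8.60 and 8.59 in methanol, 8.32 and 8.46 at 10 ng/ml, 8.22 and 8.22 at 100 ng/ml, and 8.23 and 8.45 at 300 ng/ml BMP4. No BMP4 array lay above the highest control, and the change was -0.13 (95% interval -0.36 to 0.10, adjusted p = 0.579). Hsp90b1 (GRP94), the Hsp90 of the ER, was 10.56 and 10.86 in untreated cells, 10.72, 10.98 and 11.05 in methanol, 10.73 and 10.88 at 10 ng/ml, 10.86 and 10.91 at 100 ng/ml, and 10.86 and 10.90 at 300 ng/ml BMP4. Its change of 0.15 (95% interval -0.08 to 0.39, adjusted p = 0.519) turned to -0.05 with methanol as the control. Methanol replicates 2 and 3 held its highest signals, while methanol replicate 1 lay below all 6 BMP4 arrays. Sdf2l1, a partner of Hspa5 complexes, was 8.86 and 8.60 in untreated cells, 8.88, 8.64 and 8.53 in methanol, 8.82 and 8.39 at 10 ng/ml, 8.73 and 8.64 at 100 ng/ml, and 8.69 and 8.41 at 300 ng/ml BMP4, and changed by -0.16 (95% interval -0.46 to 0.14, adjusted p = 0.621). For Creld2, a resident ER protein induced by ER stress, the signals were 9.37 and 9.11 in untreated cells, 9.38, 9.26 and 9.15 in methanol, 9.40 and 8.98 at 10 ng/ml, 9.39 and 9.33 at 100 ng/ml, and 9.46 and 9.11 at 300 ng/ml BMP4. Its change of -0.02 (95% interval -0.29 to 0.25, adjusted p = 0.968) turned sign in 6 of 21 alternative settings. Herpud1, which serves ER-associated degradation, was 9.53 and 9.15 in untreated cells, 9.45, 9.23 and 9.03 in methanol, 9.51 and 9.41 at 10 ng/ml, 9.78 and 9.54 at 100 ng/ml, and 9.65 and 9.49 at 300 ng/ml BMP4, a change of 0.19 (95% interval -0.10 to 0.49, adjusted p = 0.506). In these 5 genes the BMP4 arrays overlapped the controls.

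Edem1, which hands misfolded glycoproteins to degradation, was the 1 gene of the chaperone group that passed. It was 8.90 and 9.17 in untreated cells, 9.0, 9.07 and 9.13 in methanol, 9.07 and 9.07 at 10 ng/ml, 9.70 and 9.53 at 100 ng/ml, and 9.75 and 9.95 at 300 ng/ml BMP4. The arrays at 10 ng/ml lay among the controls and those at the higher doses above them. The mean change was 0.51 (SE 0.10, adjusted p = 0.00679). It was 0.31 over 10 and 100 ng/ml alone, in the fit without BMP4 300 ng/ml replicate 2, and 0.33 when its 2 probe sets were averaged. Neither of these passed the threshold. The second probe set had a mean signal of 3.97, below every array median, against 9.17 for the one used. Its BMP4 arrays differed from untreated by 0.05 on average, against 0.48 for the one used. Dnajc3, a cochaperone that also inhibits Eif2ak3, followed with 0.32 (95% interval 0.08 to 0.56, adjusted p = 0.0990). The disulfide isomerase Pdia3 changed by 0.22 (adjusted p = 0.435) and Pdia6 by -0.13 (adjusted p = 0.571). The lectin chaperones gave 0.13 (adjusted p = 0.348) for Calr and -0.02 (adjusted p = 0.946) for Canx. Changes of the cochaperones Dnajb9 and Dnajb11, of Manf, a secreted stress protein, and of Hyou1, an exchange factor for Hspa5, lay between -0.06 and 0.05, and none of them passed.

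The chaperone windows carried the ER stress element (ERSE), the site of Atf6 and Xbp1 in such promoters. Searched on both strands as CCAAT, any 9 bases, then CCACG, ERSE stood in 7 of 14 chaperone windows (50%), in no window of the other roles and in 0.119% of all windows. The 7 were those of Hspa5, Hsp90b1 (with 2 matches), Calr, Canx, Pdia6, Dnajc3 and Creld2. None of these genes passed under BMP4. Its last 5 letters alone, CCACG, stood in 92.9% of chaperone windows and 32.8% of all windows, and matches to ERSE and ERSE-II contain them. ERSE-II, searched as ATTGG, any 1 base, then CCACG, stood in the windows of Herpud1 and Dnajb11 and in 0.0365% of all windows. Edem1, which rose, had neither full element in its window. A match is only a description of the letters. The stretches below are those of 5 genes that did not pass, with matches in capitals, 20 bases on each side, and for Herpud1 first the C/EBP-ATF match and then ERSE-II.
Hspa5, chr2:34772005-34772063, plus strand: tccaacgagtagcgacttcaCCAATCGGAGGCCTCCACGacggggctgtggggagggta
Hsp90b1, chr10:86705513-86705676, minus strand: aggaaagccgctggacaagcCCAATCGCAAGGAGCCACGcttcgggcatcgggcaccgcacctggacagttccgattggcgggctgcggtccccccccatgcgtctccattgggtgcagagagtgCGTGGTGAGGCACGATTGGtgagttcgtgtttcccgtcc
Pdia6, chr12:17266471-17266529, plus strand: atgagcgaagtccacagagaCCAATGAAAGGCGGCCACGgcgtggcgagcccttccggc
Creld2, chr15:88819500-88819558, plus strand: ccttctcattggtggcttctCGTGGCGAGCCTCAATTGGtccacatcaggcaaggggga
Herpud1, chr8:94386297-94386407, plus strand: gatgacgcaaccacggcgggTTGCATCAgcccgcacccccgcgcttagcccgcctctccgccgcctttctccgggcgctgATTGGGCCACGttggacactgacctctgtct

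**Figure D2:**
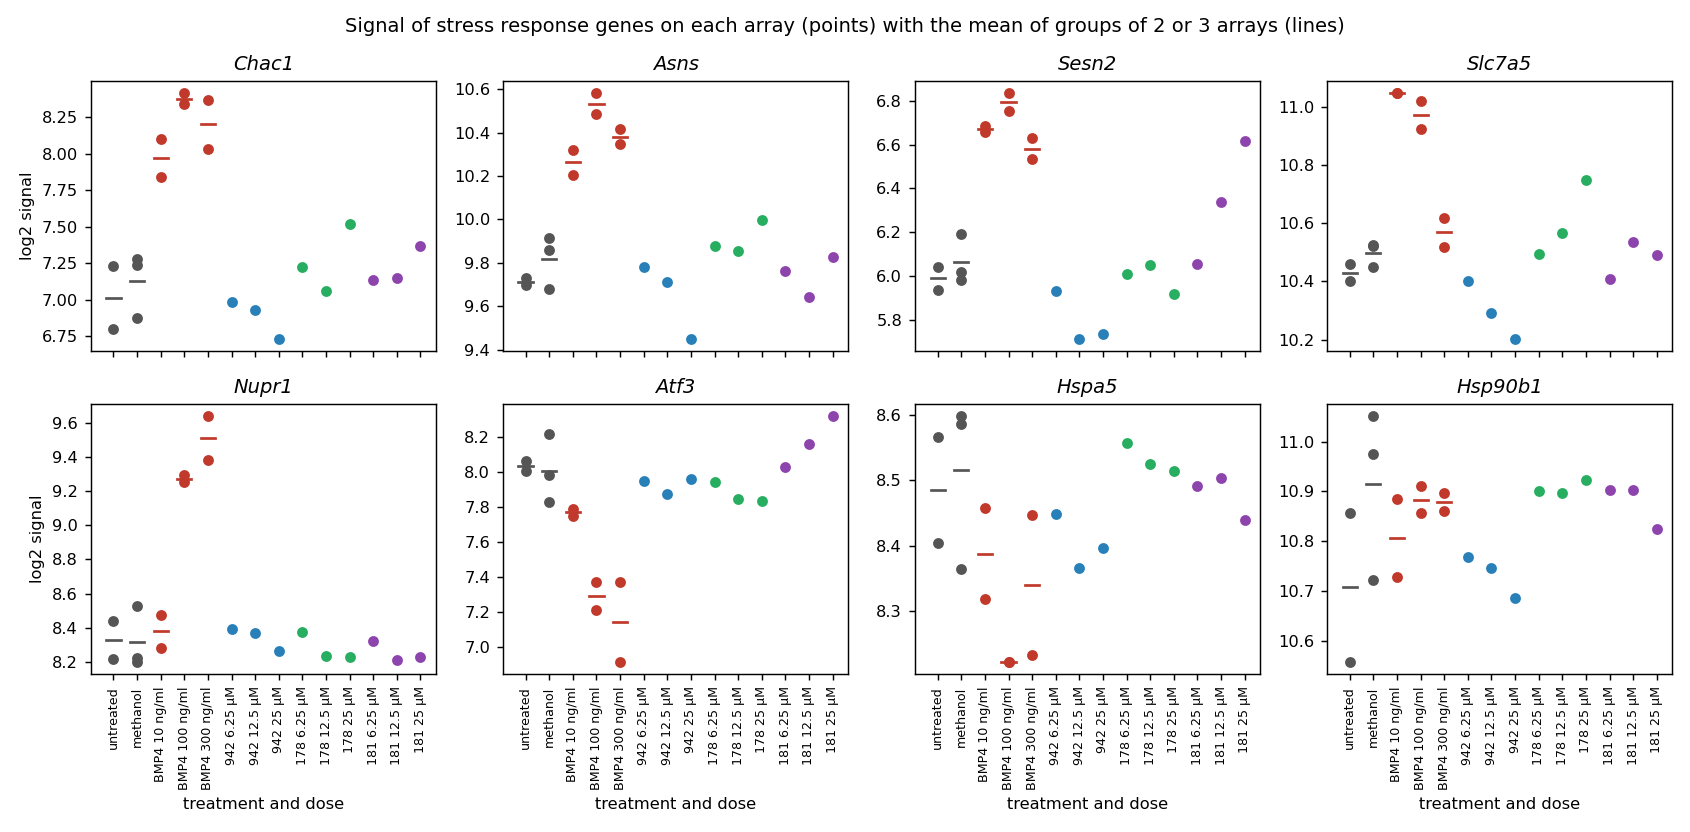
Log2 signal (y axis) of 8 genes on each of the 20 arrays (points) by treatment and dose (x axis), with lines for the mean of groups of 2 or 3 arrays; the y axes differ and do not start at 0. Chac1, Asns and Sesn2 stand above the controls at all BMP4 doses, Nupr1 at 100 and 300 ng/ml only, Atf3 stands below them, and Hspa5 and Hsp90b1 overlap them.

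The genes that passed differed between doses, a difference that was tested only as a slope. At 10 ng/ml, 5 genes rose and 0 fell, against 0.555% and 0.546% of all genes, and all 5 were amino acid response genes: Chac1 by 0.96, Sesn2 by 0.68, Slc7a5 by 0.62, Asns by 0.55 and Slc3a2 by 0.42. This count was 1 without untreated replicate 1 or BMP4 10 ng/ml replicate 1, 2 without untreated replicate 2, methanol replicate 2 or methanol replicate 3, and 3 without BMP4 10 ng/ml replicate 2. At 100 ng/ml, 11 rose and 2 fell, against 4.40% and 4.75% of all genes. They were the 10 genes that rose in the mean and Ddit3 (0.63 (adjusted p = 0.0435)), with Ern1 and Atf3 the 2 that fell. The call of Ddit3 was lost in 7 of 20 alternative settings, among them the fits without either BMP4 100 ng/ml array, any of the 3 methanol arrays or untreated replicate 1. Ern1, Slc3a2 and Edem1 did not pass without untreated replicate 1 or BMP4 100 ng/ml replicate 1, nor did Atf5 without untreated replicate 2 or BMP4 100 ng/ml replicate 2. At 300 ng/ml, 5 rose and 2 fell, against 3.70% and 4.28%. Chac1 (1.36), Nupr1 (1.31), Edem1 (0.92), Asns (0.70) and Sesn2 (0.64) rose, while Psat1 (-1.03) and Atf3 (-0.66) fell. Here the count was 4 without untreated replicate 2, and 12 without the labelling term, which brings in replicate 1. The median of the amino acid response genes was 0.43, 0.47 and 0.25 at 10, 100 and 300 ng/ml, and that of the chaperones -0.01, 0.00 and 0.03.

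A slope per doubling of BMP4 dose was tested over the 3 doses. It was positive for Nupr1 (0.26 (adjusted p = 8.00e-04)) and Edem1 (0.18 (adjusted p = 0.00280)), against 2.32% of all genes, and negative for Psat1 (-0.21 (adjusted p = 0.0194)) and Slc7a5 (-0.08 (adjusted p = 0.0478)), against 3.08%. Psat1, which makes phosphoserine, was 8.94 and 9.20 in untreated cells, 8.83, 9.13 and 9.20 in methanol, 8.88 and 9.31 at 10 ng/ml, 8.32 and 8.81 at 100 ng/ml, and 7.87 and 8.05 at 300 ng/ml BMP4, with 1 array at 10 ng/ml in the control range and the other above it, and the lowest signals at 300 ng/ml. The slope of Slc7a5 was lost in 10 of 17 alternative settings. It was -0.02 from 10 to 100 ng/ml alone, in the fit without BMP4 300 ng/ml replicate 2. The count of 4 slopes was 2 without BMP4 10 ng/ml replicate 2 or BMP4 300 ng/ml replicate 2. The slopes of Chac1 (0.09 (95% interval -0.00 to 0.18)), Asns (0.04 (95% interval -0.01 to 0.09)) and Sesn2 (-0.00 (95% interval -0.07 to 0.07)) did not pass, and these 3 genes were up from the lowest dose.

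**Figure D3:**
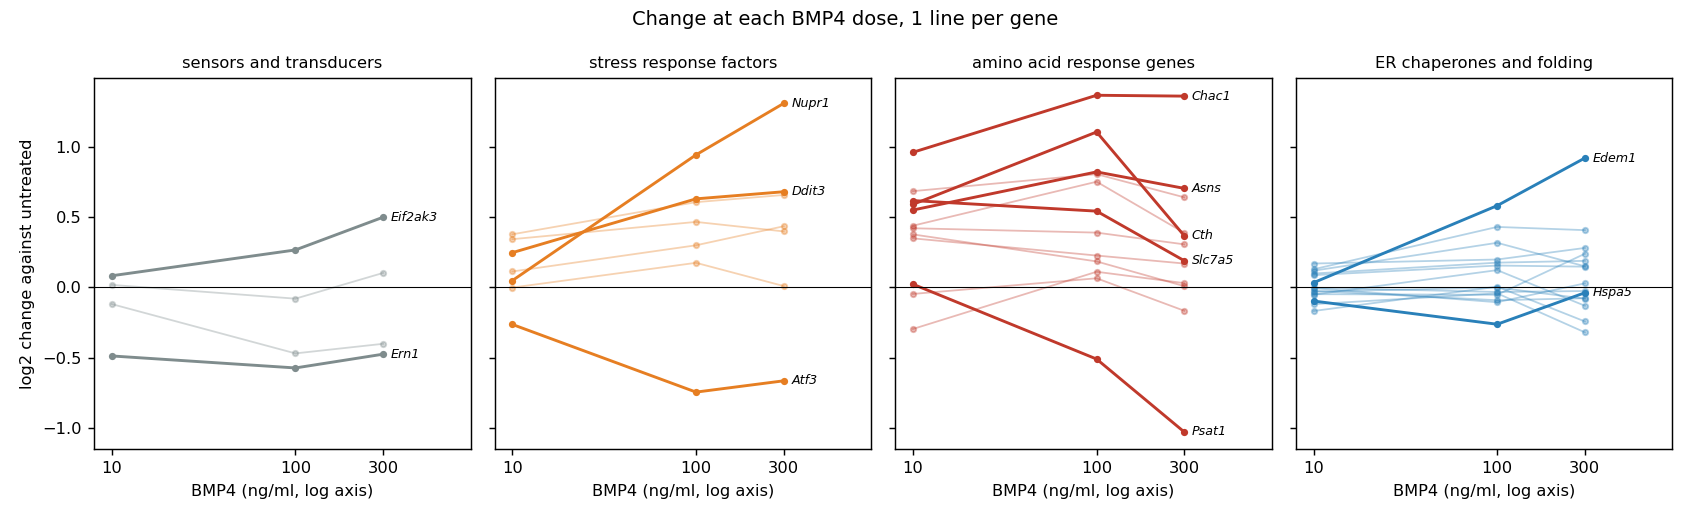
Log2 change against untreated (y axis) at 10, 100 and 300 ng/ml BMP4 (x axis, log scale), 1 line for each of the 38 genes, in 1 panel per role; at 300 ng/ml replicate 2 alone sets the value. Nupr1 and Edem1 climb with dose to 1.31 and 0.92, Slc7a5 and Psat1 decline to 0.19 and -1.03, and the other chaperones stay between -0.32 and 0.43.

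Other genes of the same pathways were taken from 7 lists of 138 genes, of which 126 were measured. Of these, 22 rose and 2 fell in the mean over BMP4 doses, against 4.20% and 4.60% of all genes, with a median of 0.16. Among 21 other Atf4 targets, 8 rose and 1 fell, with a median of 0.32. Aldh1l2, a mitochondrial folate enzyme, rose by 1.36 (SE 0.14, adjusted p = 7.56e-05). Slc7a11, the cystine importer, rose by 1.23 (SE 0.20, adjusted p = 0.00179), or by 0.70 when its probe sets were averaged. Slc1a4, an importer of small neutral amino acids, rose by 1.20 (SE 0.13, adjusted p = 1.64e-04), and Aldh18a1, the first enzyme of proline synthesis, by 0.72 (SE 0.12, adjusted p = 0.00217). The call of Aldh18a1 was lost without untreated replicate 1. Among 24 other genes of ER folding and oxidation, 7 rose and 0 fell, with a median of 0.21. The 4 that moved most were the prolyl isomerases Fkbp14 at 0.87 (SE 0.12, adjusted p = 8.29e-04) and Fkbp7 at 0.65 (SE 0.09, adjusted p = 6.18e-04), and the disulfide isomerases Pdia5 at 0.62 (SE 0.13, adjusted p = 0.0120) and Txndc5 at 0.53 (SE 0.12, adjusted p = 0.0168). Pdia5 and Txndc5 did not pass without untreated replicate 2. The chaperone group above thus had 1 of 15 genes up, and the other ER folding list 7 of 24; the difference between the lists was not tested.

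None of the 38 genes passed for any compound. In limma with Benjamini-Hochberg adjustment, 0 genes passed for compounds 942, 178 and 181 averaged over doses against methanol, against 0%, 0% and 0.00451% of all genes that rose and 0% that fell. At an unadjusted p under 0.05 there were 0, 0 and 5 of them, against 1.5%, 2.47% and 3.68% of all genes. Each dose is 1 array, assumed in the model to vary as much as replicated groups do, and compound 942 has larger errors than the others because of the labelling term. Methanol against untreated cells likewise gave 0 genes, and 0 at an unadjusted p under 0.05, against 2.86% of all genes, a share at which about 1 of 38 would pass. All 3 arrays of compound 181 lay above all 3 methanol arrays for Cth, Trib3, Ddit3 and Vldlr, that is 4 of 38 genes against 4.82% of all genes, and below them for Xbp1, against 6.51%. For compound 178 this held for 0 genes above and 1 below (Xbp1), against 4.67% and 4.92%. For compound 942 it held for 3 above (Ddit3, Cth and Creld2) and 4 below (Sesn2, Shmt2, Mthfd2 and Slc7a5), against 5.65% and 6.79%. These counts use the signals without the labelling term. All 3 arrays of compound 942 were labelled by Affyexpress and no methanol array was, so compound and labelling cannot be told apart in its counts. Methanol replicates 2 and 3 also lie in the other run of title numbers.

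Under compound 181, Cth, Trib3, Ddit3, Sesn2 and Atf5, genes picked after their values were seen, were highest of the 3 doses at the top dose. Vldlr, Psat1, Calr and Creld2, also picked, were lowest there. Neither list is complete. Atf3, Ern1, Chac1 and Mthfd2 were among further genes highest at that dose, and Hspa5, Hsp90b1, Pdia3, Canx and Xbp1 among further genes lowest there. Cth was 5.13, 5.70 and 6.55 at 6.25, 12.5 and 25 µM of compound 181, against 5.05, 4.77 and 5.08 in methanol. At 25 µM it was above every other array of the series, and the change was 1.59 (95% interval 1.07 to 2.11, adjusted p = 0.0973). Trib3 was 6.5, 6.57 and 7.03 at 6.25, 12.5 and 25 µM, against 6.03, 5.95 and 6.25 in methanol. Its change at 25 µM was 0.96 (95% interval 0.39 to 1.52, adjusted p = 0.403). Ddit3 was 7.11, 7.07 and 7.52 at 6.25, 12.5 and 25 µM, against 6.86, 6.78 and 6.91, and the change at 25 µM was 0.67 (95% interval 0.23 to 1.11, adjusted p = 0.472). All 3 lay above methanol at each dose, and none of the changes passed. Sesn2 was 6.06, 6.34 and 6.62 at 6.25, 12.5 and 25 µM, against 6.19, 5.98 and 6.02, with 0.55 (95% interval 0.20 to 0.90, adjusted p = 0.443) at 25 µM. Atf5 was 8.82, 9.12 and 9.52 at 6.25, 12.5 and 25 µM, against 8.96, 8.94 and 8.96, with 0.56 (95% interval 0.31 to 0.81, adjusted p = 0.257). In these 2 genes the lowest dose stood within or below the methanol range. Chac1 and Asns, which BMP4 raised, had changes of 0.24 (95% interval -0.21 to 0.69) and 0.01 (95% interval -0.25 to 0.28) at 25 µM of compound 181, and Hspa5 one of -0.08 (95% interval -0.39 to 0.23).

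Slc7a11, the cystine importer named above, which is not among the 39 genes, was the 1 gene of all 22180 that passed for compound 181 averaged over doses. It was 5.12, 6.11 and 7.19 at 6.25, 12.5 and 25 µM, against 4.16, 4.56 and 4.64 in methanol, a mean change of 1.68 (SE 0.19, adjusted p = 0.0317) and one of 2.74 (SE 0.27, adjusted p = 0.00732) at 25 µM, where 0.0180% of genes rose. The mean call was lost in 9 of 19 alternative settings. Among them were the fits without any 1 of the 3 methanol arrays or of the 2 BMP4 10 ng/ml arrays. The others were no variance trend, a further quantile normalization, a common mean for doses and probe set averaging. With probe sets averaged the changes were 0.996 over doses and 1.65 at 25 µM. Compound 942 gave 4.56, 4.61 and 5.38 at 6.25, 12.5 and 25 µM and compound 178 4.34, 4.15 and 4.64 at 6.25, 12.5 and 25 µM, with changes at 25 µM of 1.49 (SE 0.42) and 0.19 (SE 0.27) that did not pass. The change for compound 942 includes the labelling term, which rests on BMP4 300 ng/ml replicate 1 (4.86) against replicate 2 (5.43).

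**Figure D4:**
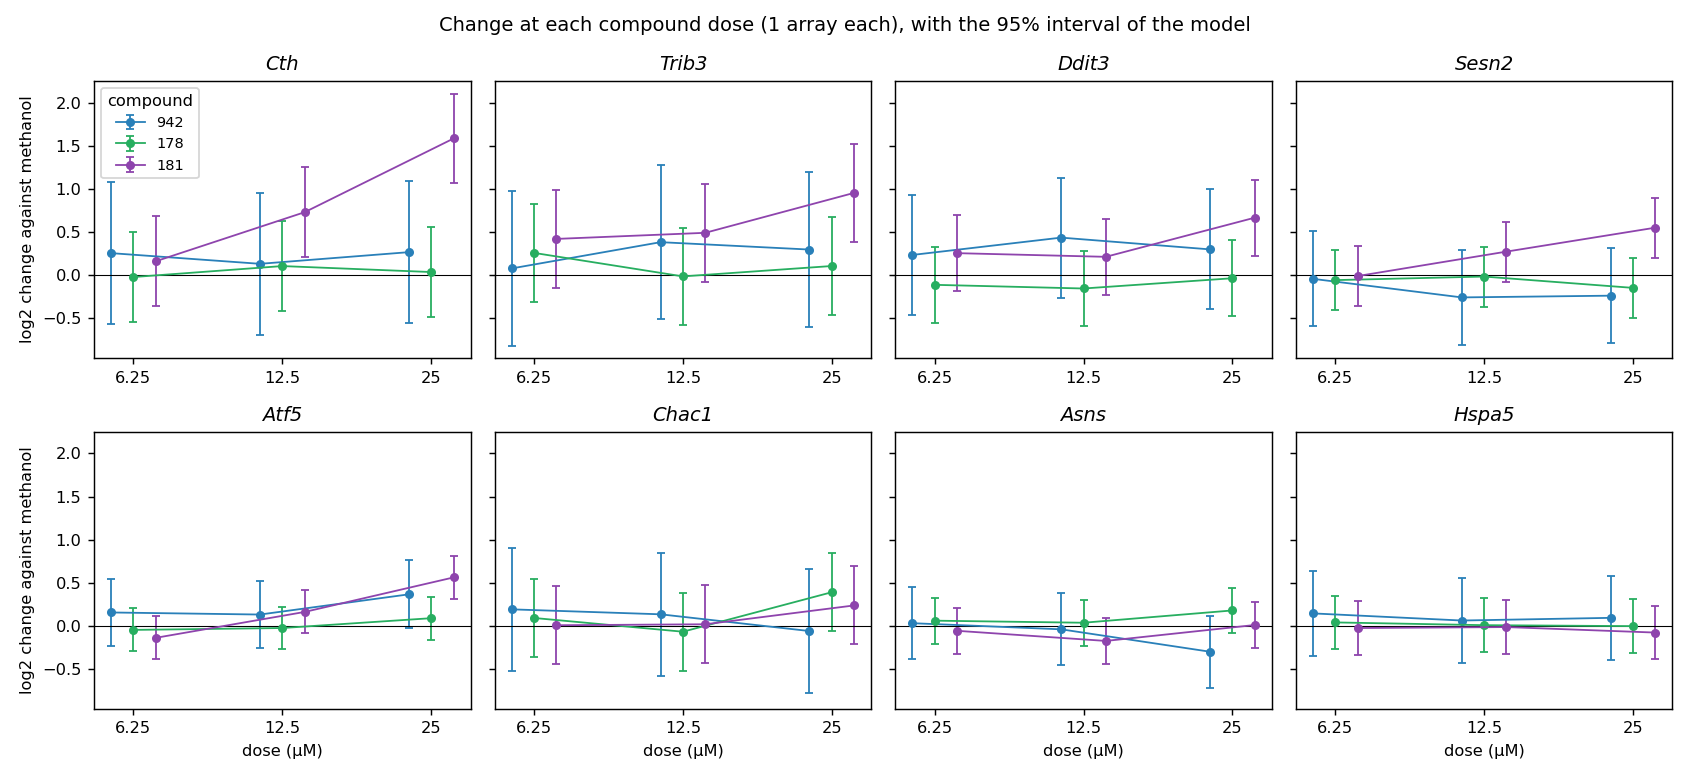
Log2 change against methanol (y axis) of 8 genes at 6.25, 12.5 and 25 µM (x axis) of compounds 942, 178 and 181, 1 array per point, with 95% intervals of the model as bars; points are set side by side for legibility. Cth climbs to 1.59 and Trib3 to 0.96 under compound 181, while Chac1, Asns and Hspa5 stay between -0.30 and 0.39 under all 3 compounds.

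The compounds were compared in pairs at each dose, 9 pairs in all, and 0 of the 38 genes passed in any pair in limma with adjustment over all genes, where 0% of genes rose and 0% fell. At 25 µM, 6 genes were higher under compound 181 than under 178 at an unadjusted p under 0.05 and 0 were lower, against 5.56% of all genes in either direction. Cth differed by 1.55 (95% interval 0.91 to 2.19, adjusted p = 0.465). Cth was picked for this difference, which is given as a description. Sesn2 differed by 0.70 (95% interval 0.27 to 1.12, adjusted p = 0.646), Trib3 by 0.85 (95% interval 0.16 to 1.54, adjusted p = 0.797) and Ddit3 by 0.70 (95% interval 0.16 to 1.24, adjusted p = 0.776). Atf5 differed by 0.47 and Atf3 by 0.48. Hspa5 differed by -0.07 (95% interval -0.45 to 0.30) and Asns by -0.17 (95% interval -0.49 to 0.16), intervals that leave room for differences in either direction. Compound 942 was below 181 at 25 µM in Cth (-1.32 (95% interval -2.22 to -0.42)) and in Sesn2 (-0.79 (95% interval -1.39 to -0.19)), neither of which passed; these compounds also differ in labelling method and in run of title numbers, which cannot be told apart from the compound in these pairs. Slopes per doubling of dose gave 0 genes for all 3 compounds in limma, with 1, 0 and 3 genes at an unadjusted p under 0.05 for 942, 178 and 181, against 2.11%, 1.62% and 3.55% of all genes. For Cth the slope under compound 181 was 0.71 (95% interval 0.39 to 1.03) and under compound 178 0.03 (95% interval -0.29 to 0.35).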

How the data were processed

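Expression of C2C12 cells was measured on 20 Affymetrix mouse gene arrays. The deposited table holds log2 signals, 1 per probe set and array, made by the authors with RMA in Partek 6.5, per the submitters' processing notes; the genome build is not stated there. Per the labels' protocols, some RNA was labelled by both methods so that batches could be corrected, and no source used here says whether the deposited log2 values were corrected. The values were used as they stood.

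Of 41345 probe sets, 23521 carried 1 symbol in the platform annotation, 1814 several and 16010 none. Tests covered 22180 genes that had a probe set to themselves, the probe set with the highest mean standing for the gene. A linear model in limma 3.58.1 (R 4.3.3), with a mean for each treatment and dose and a labelling term, was fitted to all 20 arrays (5 residual degrees of freedom), with moderated variances that follow the mean signal. P-values were two-sided, adjusted by Benjamini-Hochberg over all genes and called under 0.05; intervals are 95%. The script was tested on simulated data. The number of arrays limits the precision. Promoter windows are RefSeq sequences on GRCm38.p6, used as a description.

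The 39 genes, their roles and all lists were chosen with earlier results of these data known. All 39 could be named; values per array were printed for genes that passed in the BMP4 mean and for Atf4, Ddit3, Asns, Chac1, Trib3, Hspa5, Hsp90b1, Xbp1, Sdf2l1, Creld2 and Herpud1, and of each other list up to 4 genes that passed with the largest change. Psat1 per array and Cth, Trib3, Ddit3, Sesn2, Atf5 and Slc7a11 under the compounds were chosen after their values were seen. Alternatives tried were the labelling term, a term for the runs of title numbers, the choice of control, the variance trend, probe set averaging, leaving out the lowest 30% of genes, a further quantile normalization, a common mean over doses, and leaving out each array. Protein sequences were not used here.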

Additional observations from a re-analysis of the deposited data

How the results depend on the processing

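All counts below are genes of the 38 that passed. The share of all genes that passed is not given for the alternative settings, here or above. A lower or higher count there can therefore not be read as particular to the 38 genes. For BMP4 averaged over doses, the count of 12 was 5 to 15 when 1 array was left out, with 5 without untreated replicate 1, and 9 to 17 under the other settings. Asns, Sesn2, Chac1 and Slc7a5 passed in all 21 alternatives run for this comparison. At 10 ng/ml, the count of 5 was 8 with both controls pooled, 1 without the variance trend, and 1 to 5 with 1 array left out. At 300 ng/ml, the count of 7 was 12 without the labelling term, 11 with a term for the runs of titles (the run term), and 4 to 8 with 1 array left out. The count of 4 slopes was 2 with probe sets averaged and 2 to 4 with 1 array left out. For stress response factors and amino acid response genes together, the count of 10 was 5 to 13 with 1 array left out. For chaperones, the count of 1 was 2 without the labelling term, 2 with the run term, 0 with probe sets averaged, 0 with a common mean for doses, and 0 to 1 with 1 array left out. It was 2 without both BMP4 10 ng/ml arrays, an alternative chosen after seeing the data. Counts for the compounds, their pairs and slopes, and for methanol were 0 under every setting run. Changes near 0 turned sign. Hsp90b1 was -0.0535 with methanol as the control. Xbp1 was -0.0461 with both controls pooled, -0.0857 with methanol as the control, -0.0134 after a further quantile normalization and -0.0044 with a common mean for doses. Creld2 was 0.0386 without the labelling term, 0.0178 with the run term and 0.0025 with a common mean for doses. With 1 array left out, Atf4 was -0.0978 to 0.2196, below 0 only without untreated replicate 1. In the same way Xbp1 was -0.0763 to 0.1031, below 0 in 4 such fits, and Creld2 was -0.1494 to 0.1101, above 0 in 3. The causes were not tested. Without BMP4 300 ng/ml replicate 2 there is no value for that dose, because replicate 1 was left out with it. Without either BMP4 300 ng/ml array there is none for compound 942. The labels give the arrays no replicate numbers, so arrays were blocked only by run of titles, as above. With 2 or 3 arrays a group and 1 per compound dose, the intervals of the compounds are wide, and an interval that includes 0 does not show that a gene did not change.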

Other observations

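The counts of further lists of the same pathways are those of the mean over BMP4 doses, where 4.20% of all genes rose and 4.60% fell. Of 18 tRNA synthetases, which charge tRNAs with amino acids, 2 rose and 0 fell, with a median of 0.04. Sars, the seryl enzyme, rose by 0.39 (SE 0.08, adjusted p = 0.00759) and Eprs, the enzyme of glutamate and proline, by 0.36 (SE 0.10, adjusted p = 0.0404), and the call of Eprs was lost in 10 of 21 alternative settings. Of 23 genes of ER translocation and COPII vesicles, which carry proteins into and out of the ER, 3 rose and 0 fell, with a median of 0.19. They were the COPII coat genes Sec24d at 0.48 (SE 0.11, adjusted p = 0.0181) and Sec23a at 0.42 (SE 0.11, adjusted p = 0.0328), and the translocon partner Sec62 at 0.32 (SE 0.09, adjusted p = 0.0418). Without BMP4 300 ng/ml replicate 2, Sec24d was at 0.27 and Sec23a at 0.27, and neither passed. Neither passed without untreated replicate 1 either, where Sec23a was at 0.25, and Sec62 was lost in 12 of 21 alternative settings. Of 18 genes of ER-associated degradation, 1 rose, the lectin Os9 at 0.46 (SE 0.10, adjusted p = 0.00958). Os9 did not pass without untreated replicate 2 or BMP4 300 ng/ml replicate 2, and Sars did not pass without untreated replicate 2. Of 10 genes of the eIF2 kinases and eIF2, 0 passed in limma, 1 was higher and 2 were lower at an unadjusted p under 0.05, against 19.9% of all genes in either direction, and the median was -0.02.

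Among 12 membrane-bound factors and proteases, 1 rose and 1 fell. Creb3l1 (OASIS), an ER-bound factor known from bone collagen secretion, rose by 1.07 (SE 0.16, adjusted p = 9.49e-04). It was 8.79 and 9.18 in untreated cells, 8.82, 8.92 and 8.92 in methanol, 9.05 and 9.36 at 10 ng/ml, 10.30 and 9.74 at 100 ng/ml, and 10.64 and 10.95 at 300 ng/ml BMP4. Its change was 0.63 over 10 and 100 ng/ml alone, in the fit without BMP4 300 ng/ml replicate 2. Wfs1, an ER membrane protein, had a change of -1.35 (SE 0.12, adjusted p = 3.24e-05), a fall. It was 9.78 and 9.62 in untreated cells, 9.78, 9.65 and 9.58 in methanol, 8.59 and 9.0 at 10 ng/ml, 8.09 and 8.26 at 100 ng/ml, and 7.93 and 8.08 at 300 ng/ml BMP4, and its 6 BMP4 arrays lay below its 5 controls.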
